A study of Mus musculus with 6 samples.

Results

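The 9 genes that hold the strongest Ikaros binding sites lying well inside a gene body were followed across the wild-type natural killer (NK) cell libraries of this series. In alphabetical order they are Cep192, Clasp1, Dpp6, Fcho2, Kpna1, Limd1, Mbd5, Snx29 and Tiam1. Every peak that the authors placed at distance 0 from one of them was taken, which gave 31 of 4111 peaks: 10 of 685 in WT replicate 1, 11 of 2084 in replicate 2 and 10 of 1342 in replicate 3. After peaks sharing at least 1 base were merged, these formed 11 of 2526 regions. The genes were chosen by measured values: each has a region among the 15 with the highest mean percentile of fold enrichment over the 3 lists. The strength and the depth of those regions are therefore given as a description, with no test.

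The series measured binding of Ikaros, the protein encoded by Ikzf1, by chromatin immunoprecipitation and sequencing (ChIP-seq) in mouse splenic NK cells that had been expanded ex vivo in IL-15 at 50 ng/ml. It holds 6 samples, 3 WT and 3 in which Ikzf1 was knocked out conditionally through NKp46, a receptor gene active in NK cells. Both groups were precipitated with the same anti-Ikzf1 antibody. The 3 WT peak lists were used; the KO libraries were not analysed here, so no value below is set against cells without Ikaros. The labels do not say whether the WT libraries came from separate mice or cultures, and differences between lists could be technical in origin. Peak lists hold no expression levels. Among marker genes, 3 of 10 NK genes (Klrb1c, Gzma and Gzmb) had a peak at distance 0 in some list, 1 of them from a region in 2 or more lists, and none did of 6 T cell, 4 B cell and 4 myeloid genes; 7.84% of all protein-coding genes did, so these counts say little about the cells.

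Ikaros is a zinc finger transcription factor that binds DNA at sites with a GGGAA core and recruits chromatin remodelling and co-repressor complexes. It is known for its roles in lymphocyte development and can occupy both promoters and sites far from them, where enhancers often lie. A ChIP-seq peak marks where DNA was enriched by the antibody; it does not say which gene, if any, the site controls. The 9 genes belong to no common pathway. They fall into genes of the cytoskeleton and centrosome (Tiam1, Clasp1, Cep192), of membrane traffic (Fcho2, Snx29), of the nucleus and nuclear import (Mbd5, Kpna1), and 2 others (Limd1, Dpp6).

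All 9 strongest regions were found in all lists, as the choice of the genes required; 19.8% of all 2526 regions were. Each list's fold enrichment is the authors' own value for the peak and is compared only within that list, where 100 is the percentile of the strongest peak. Median fold enrichments over all peaks were 5.10, 4.73 and 4.99 in replicates 1, 2 and 3. The lowest value among the 9 genes was 14.2, 29.1 and 22.9 in the same order, above the 95th percentile of each list (9.50, 8.88 and 9.63). Against the median peak of their own list, the 9 peaks stood 2.79 to 9.07 times higher in replicate 1, 6.15 to 17.0 times higher in replicate 2 and 4.59 to 14.2 times higher in replicate 3.

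**Figure D1:**
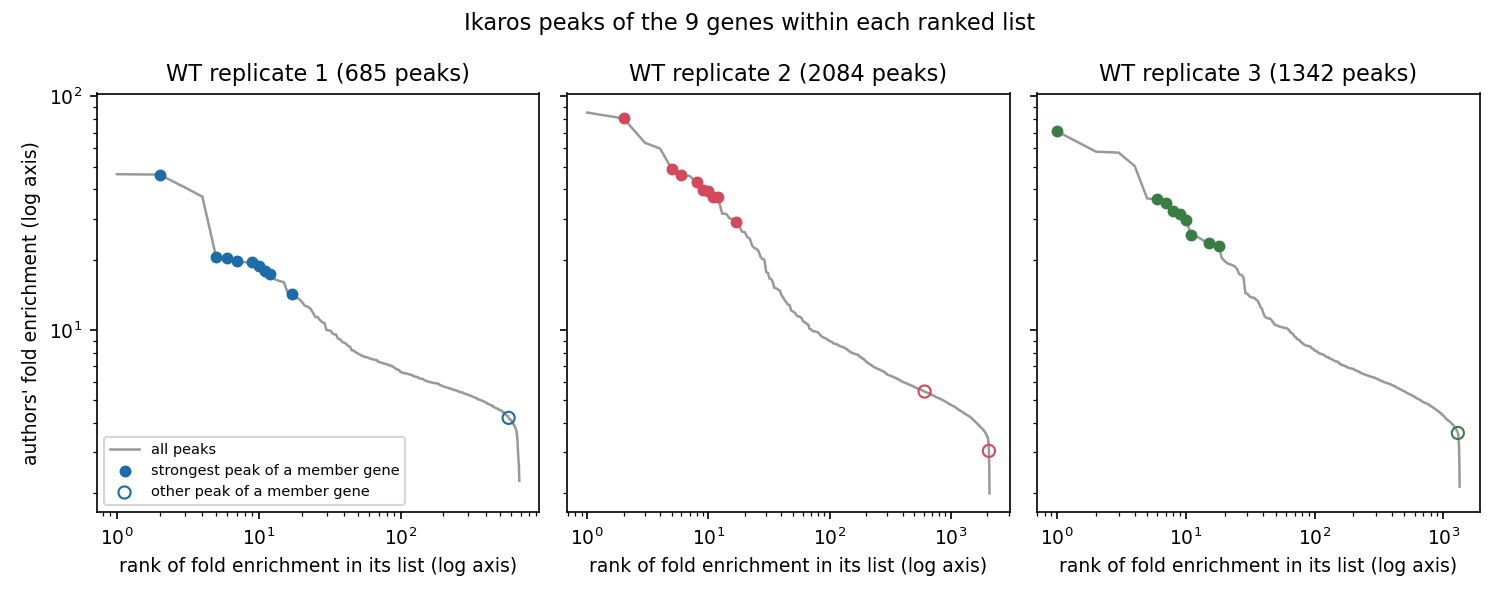
Fold enrichment of every peak against its rank in its own list, both on log axes, for WT replicates 1, 2 and 3. Filled points are the strongest peaks of the 9 genes, at ranks 2 to 17, 2 to 17 and 1 to 18; open points are other peaks of Kpna1 and Mbd5, at percentiles of 1.10 to 16.1 for Kpna1 and 70.9 for Mbd5.

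Tiam1, which encodes an exchange factor that switches on the small GTPase Rac, held the strongest site of the group. Its region, chr16:89904958-89905892 (mm10), had a fold enrichment of 46.2 in replicate 1, 80.4 in replicate 2 and 70.7 in replicate 3. It ranked 2 of 685, 2 of 2084 and 1 of 1342, a mean percentile of 99.9 ± 0.0744 (SD, n = 3). In each list Tiam1 stood well apart from the next member, whose fold enrichment was 20.5, 48.9 and 36.2. Such heights were not particular to Tiam1 among all regions. The region first in mean percentile, on chromosome 8 outside coding genes, had 46.4, 85.2 and 57.9. The −log10 q of the Tiam1 peak was 154, 313 and 267, against list medians of 4.31, 3.96 and 4.40.

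Clasp1 encodes a protein that binds and stabilises the growing ends of microtubules. Its region, chr1:118426156-118426920, had fold enrichments of 17.9, 39.5 and 29.4 and ranked 11, 10 and 10 in replicates 1, 2 and 3. Cep192 encodes a scaffold of the centrosome that gathers the material around the centrioles. Its region, chr18:67858317-67858804, had 19.7, 45.8 and 36.2 and ranked 7, 6 and 6. These 2 genes kept nearly the same rank in every list. This was not particular to them, since Tiam1 ranked 2, 2 and 1.

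Of the membrane traffic genes, Fcho2 encodes an F-BAR protein that acts early in the formation of clathrin-coated pits. Its region, chr13:98737703-98738385, had fold enrichments of 20.4, 42.9 and 32.4, at ranks 6, 8 and 8. Snx29 encodes a member of the sorting nexin family. Its region, chr16:11686012-11688076, had 19.5, 39.7 and 35.1, at ranks 9, 9 and 7. The mean percentiles of the pair were 99.5 ± 0.197 and 99.3 ± 0.436 (SD, n = 3). Within lists, the percentile of Fcho2 was higher in replicates 1 and 2 (99.27 against 98.83, and 99.66 against 99.62). That of Snx29 was higher in replicate 3 (99.55 against 99.48).

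Mbd5 encodes a protein of the methyl-CpG-binding domain family. Its strongest region, chr2:48990471-48991063, had fold enrichments of 20.5, 48.9 and 31.4 and ranked 5, 5 and 9. Kpna1 encodes an importin alpha, an adaptor that carries proteins with a nuclear localisation signal into the nucleus. Its strongest region, chr16:36008542-36009167, had 18.8, 37.0 and 22.9, at ranks 10, 12 and 18. Percentiles were 99.4, 99.8 and 99.4 for the Mbd5 peak and 98.7, 99.5 and 98.7 for the Kpna1 peak; at a given rank, a longer list gives a higher percentile.

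Limd1 encodes a LIM domain scaffold that binds LATS kinases of the Hippo pathway and takes part in microRNA silencing. Its region, chr9:123509217-123510002, had fold enrichments of 14.2, 37.1 and 25.6 at ranks 17, 11 and 11, the widest percentile spread of the 9 (98.8 ± 1.00, SD, n = 3). Dpp6 encodes an accessory subunit of Kv4 potassium channels, best known from neurons. Its region, chr5:27098456-27099251, had 17.3, 29.1 and 23.5 at ranks 12, 17 and 15. Limd1 was lowest of the 9 in replicate 1, Dpp6 in replicate 2 and Kpna1 in replicate 3.

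**Figure D2:**
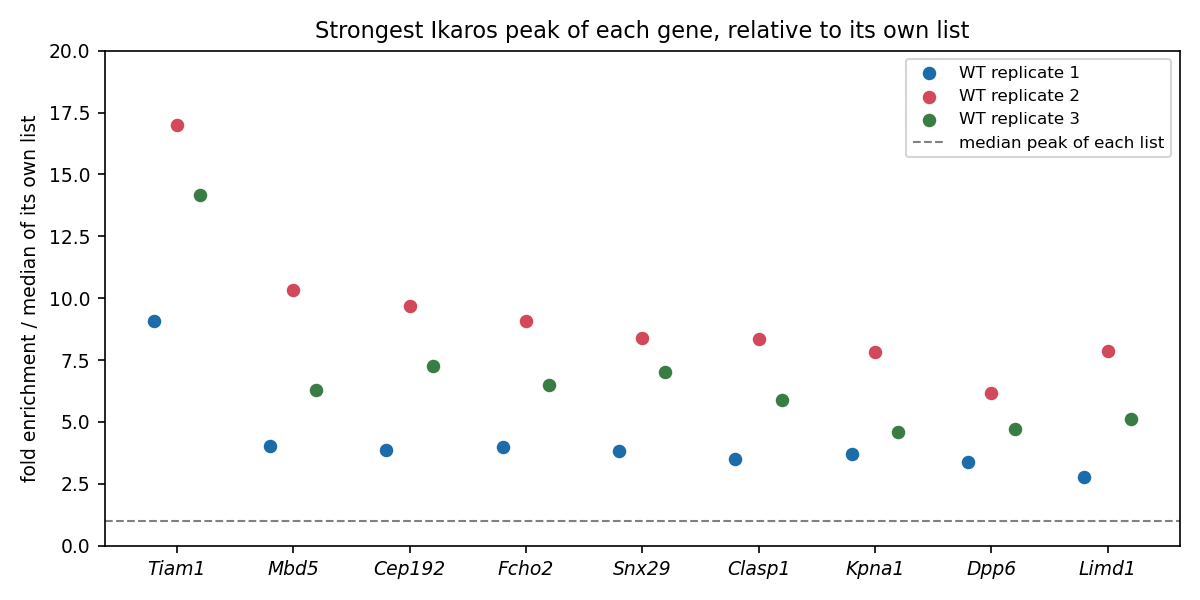
Fold enrichment of each gene's strongest peak divided by the median fold enrichment of its own list, 1 point per WT list. The dashed line at 1 is the median peak; Tiam1 is highest in each list, at 9.07, 17.0 and 14.2.

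After Tiam1, the members lay close together and their order was only partly fixed. Mbd5, Cep192, Fcho2 and Snx29 stood above Clasp1, Kpna1, Dpp6 and Limd1 in every list. The order within each of these sets changed between lists. Across the 9 regions Spearman's rho of fold enrichment was 0.900 between replicates 1 and 2, 0.733 between 1 and 3, and 0.867 between 2 and 3. These are descriptions over 9 regions that share their libraries. Mean percentiles from Mbd5 (99.5) down to Limd1 (98.8) stood within 1 SD of the next gene in order. That SD over lists also holds differences in list length that all genes share, so it does not measure the spread of these steps. The last member, Limd1, was 14th of all regions in all lists by mean percentile. The 15th, a region on chromosome 7 outside coding genes, had a mean percentile of 98.8.

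Just outside the limit, the 16th region lay in Bbs7, a gene of the ciliary BBSome complex, at a mean percentile of 98.6, with fold enrichments of 13.7, 31.4 and 23.5. In log2 fold enrichment over the 3 lists, the Bbs7 region was also the one nearest to every member among regions in other coding genes. Its distance was 0.28 from Limd1, 0.36 from Dpp6 and 2.73 from Tiam1. The members are the highest regions in coding genes by choice, which largely fixes this result. Among the regions further down in coding genes were those of Ranbp17, Mfsd6 and Lrrc9, ranked 20, 21 and 22. Of the 15 strongest regions, 9 lay inside a RefSeq protein-coding gene, while the authors' gene column put 11 at distance 0 from one, adding Cldn12 and Gm21987.

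The rank of a member depended somewhat on the measure. By the authors' −log10 q, the 9 peaks ranked 2 to 24 in replicate 1, 2 to 17 in replicate 2 and 1 to 21 in replicate 3. Ranked so, 7 of the 9 remained among the 15 strongest, and Dpp6 and Limd1 were 19th and 18th. Without replicate 1, Kpna1 and Dpp6 were 17th and 18th.

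The lists placed these sites at nearly the same bases. The mean distance between a peak's midpoints in different lists had a median of 15.7 bp over the 9 regions, from 4.00 bp in Fcho2 to 89.3 bp in Limd1. The median was 32.7 bp over the 500 regions in all lists and 18.0 bp over the 41 others among the 50 strongest of them. Starts of the Tiam1 peak differed by at most 4 bp between lists and its ends by at most 44 bp. The Limd1 peak was 445, 527 and 777 bp wide in replicates 1, 2 and 3, and its ends differed by 282 bp, so the extra length in replicate 3 lay mostly on 1 side.

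**Figure D3:**
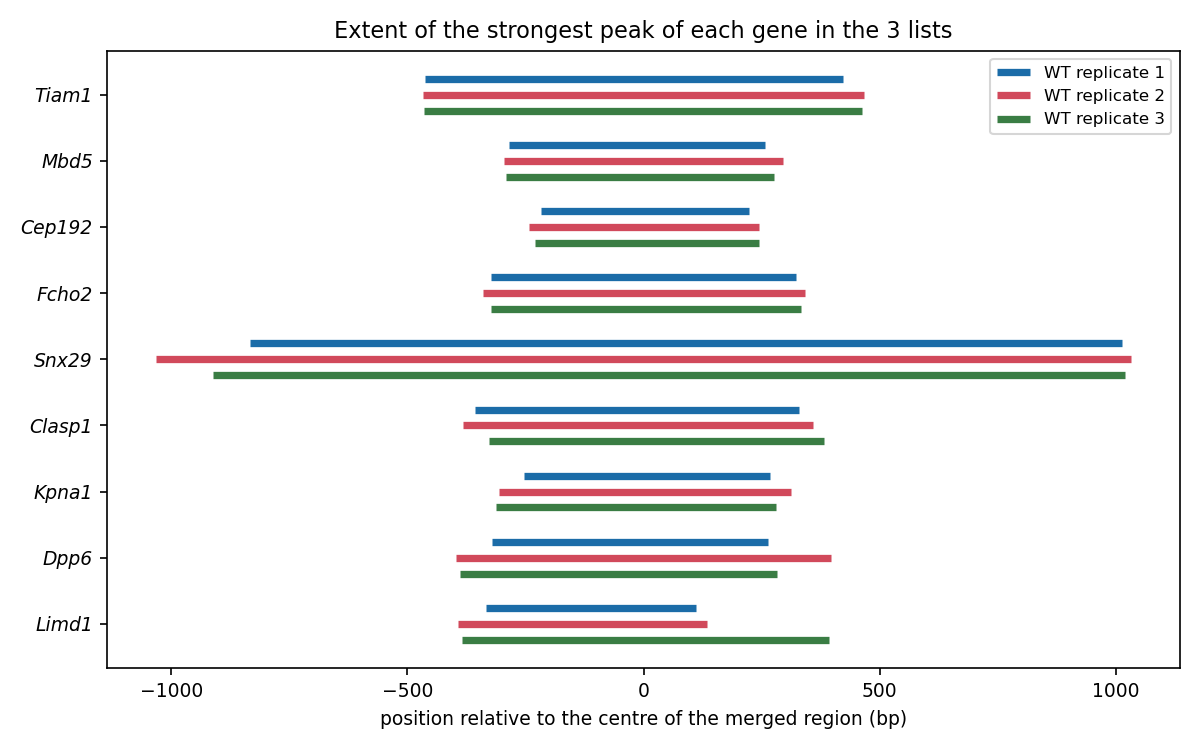
Extent of the strongest peak of each gene in the 3 lists, in bp from the centre of the merged region. The Snx29 peaks are the longest, at 1847 to 2065 bp, and the Limd1 peak reaches farther to the right in replicate 3 than in the others.

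The members' peaks were wider than most. Their widths averaged over lists had a median of 662 bp, against 364 bp for all 500 regions and 471 bp for the 41 others among the 50 strongest. The 6 other regions among the 15 strongest had a median of 809.5 bp, so width was not particular to the members. Width and height of a peak are not independent measures. Cep192 had the narrowest peaks, 442, 488 and 474 bp. Snx29 had the widest, 1847, 2065 and 1933 bp, which were the 5th, 7th and 10th widest peaks of any kind in their lists. All 3 Snx29 peaks ended within 20 bp of each other, while their starts spread over 198 bp.

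The genes were chosen for sites well inside a gene body, so their depth is part of the choice. All 9 midpoints lay 10 kb or more from the nearer end of the RefSeq gene span, against 22.8% of the 285 regions in all lists inside a protein-coding gene. The median distance was 37.5 kb for the 9 genes and 0.899 kb for the 285. Among regions placed 16th to 50th, 11 of 21 inside a gene (52.4%) lay that deep. The member genes are long, with a median span of 220 kb against 48.0 kb for coding genes holding a region in all lists, and the part of gene length in this depth was not tested.

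**Figure D4:**
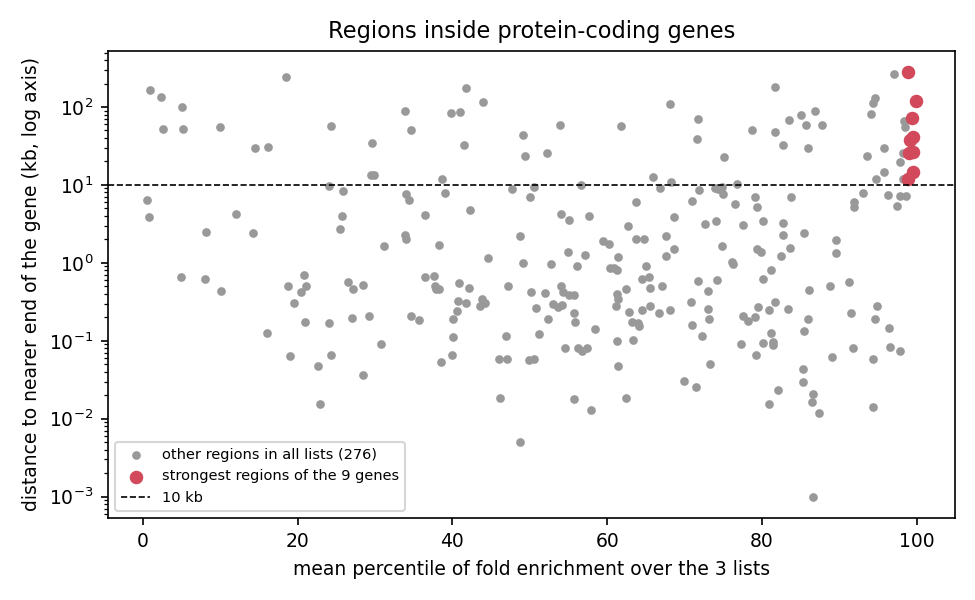
Distance from the midpoint of each region to the nearer end of the protein-coding gene that holds it (kb, log axis) against mean percentile of fold enrichment, for the 285 regions in all lists inside such genes. The 9 genes, in red, lie at the right edge and above the dashed line at 10 kb, where grey points are found across the range of percentiles too.

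The depth differed widely between the genes. The Dpp6 region lay 281 kb from the nearer end of a 910 kb gene, that of Tiam1 118 kb into 358 kb and that of Snx29 72.1 kb into 436 kb. Mbd5 had its region 41.3 kb from an end of a 370 kb gene, and Clasp1 37.5 kb from an end of 220 kb. The shorter genes had theirs closer to an end. Gene length fixes this in part, since no place in a short gene lies far from its nearer end. The distances in the shorter genes were 26.6 kb for Cep192 (85.1 kb long), 25.6 kb for Kpna1 (53.8 kb), 14.6 kb for Fcho2 (93.2 kb) and 11.9 kb for Limd1 (42.9 kb). As a share of the gene, places ran from 11.1% of the span from the nearer end in Mbd5 to 47.5% in Kpna1, near its middle.

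**Figure D5:**
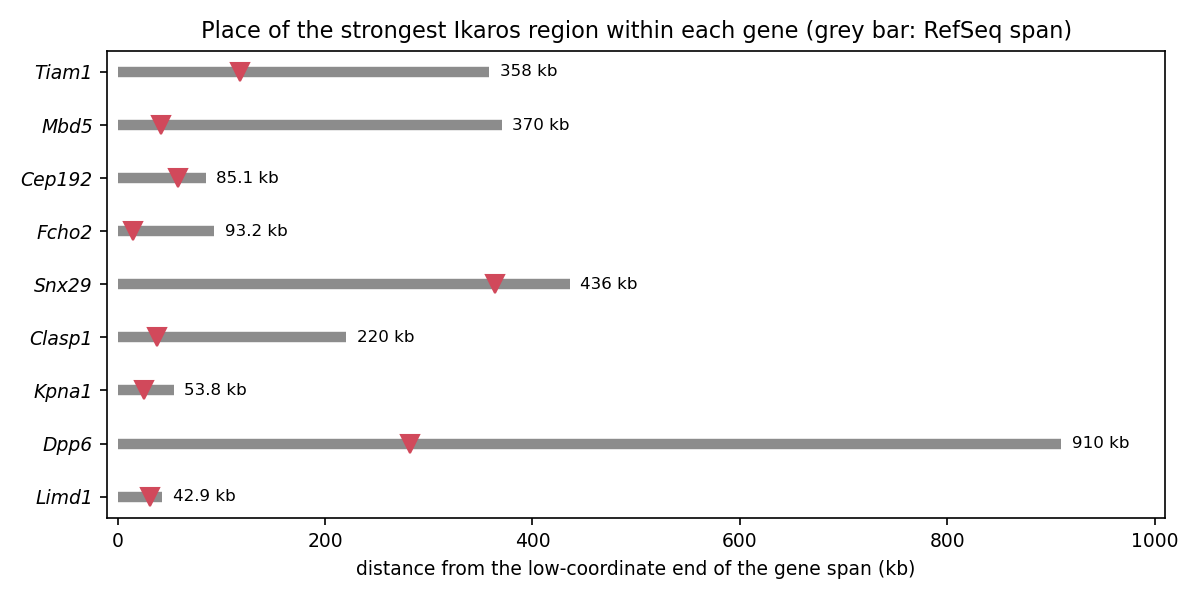
Place of the strongest region (red) along the RefSeq span of each gene (grey bar, kb from the end with the lower coordinate, whatever the strand). Spans run from 42.9 kb for Limd1 to 910 kb for Dpp6.

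Strand was known for 5 of the genes from RefSeq promoter windows, each running from 250 bases before to 50 bases after an annotated start. The nearer end was the start of the gene in Mbd5 and Dpp6, and the end of transcription in Tiam1, Fcho2 and Snx29. None of the 8 regions on chromosomes with windows overlapped one, which the choice of sites deep inside genes largely fixes. In all lists, 47.5% of 480 regions did. The lack of overlap was not particular to the members, since none of the 6 other regions among the 15 strongest overlapped a window. Among regions placed 16th to 50th, 11 of 33 (33.3%) did. For the members, the nearest window was 19.2 kb (Fcho2) to 91.4 kb (Snx29) away. For Tiam1 and Dpp6 it belonged to an inner start of the gene itself, 68.8 and 49.2 kb from the region. The windows used hold none for chromosome 18, so Cep192 was not assessed. They also hold none of Clasp1, Kpna1 or Limd1, so for these only windows of other genes could be measured. Exons and introns were not assigned.

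Spacing to other Ikaros regions was close to that of regions in general. The nearest other region of any list was a median of 221 kb away for the 9 genes, 193 kb for all 500 regions in all lists and 242 kb for the 41 others among the 50 strongest. Tiam1 and Clasp1 had no other region within 1105 and 1078 kb. Kpna1, Mbd5 and Limd1 had one 26.6, 40.9 and 47.0 kb away. Chromosome 16 carried 3 of the 9 (Tiam1, Snx29 and Kpna1), 4 of the 15 strongest regions and 3.80% of regions in all lists.

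Each of 7 genes had its strong region and no other peak, and Mbd5 and Kpna1 had 1 more region each. The further Mbd5 region lay at the start of Mbd5. That of Kpna1 lay outside its RefSeq span, at a start of the noncoding gene Gm15564. Both were in 2 or more lists when peaks named for a neighbouring gene are counted (42.9% of all 2526 regions were). They were not used to choose the genes.

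The further Mbd5 region lay at the start that Mbd5 shares with Orc4, which encodes a subunit of the origin recognition complex of DNA replication and runs the other way. In replicate 2 the peak at chr2:48949171-48949547 was 377 bp wide, was given to both genes and reached 49 bp into the RefSeq span of Mbd5. It had a fold enrichment of 5.46, rank 608 of 2084. Overlapping peaks of 250 bp in replicate 1 and 201 bp in replicate 3 were given to Orc4 alone, with fold enrichments of 5.996 and 4.09 (percentiles 76.8 and 17.7). Within Mbd5, then, the inner site exceeded the one at the start in every list: 20.5 against 5.996, 48.9 against 5.46 and 31.4 against 4.09. The choice of the gene by its inner site fixes this order.

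The bases of the Mbd5 start are shown because the replicate 2 peak covers all of them, so that matches to the Ikaros core can be seen. They are the 250 bases before a RefSeq start of Mbd5 on the plus strand, chr2:48949258-48949507 (GRCm38.p6, the same build as mm10). The RefSeq gene span begins at base 48949499, so the last bases of the window lie inside it. Bases are in lower case, with each GGGAA, or TTCCC where it is read on the other strand, in capitals.
Mbd5 promoter: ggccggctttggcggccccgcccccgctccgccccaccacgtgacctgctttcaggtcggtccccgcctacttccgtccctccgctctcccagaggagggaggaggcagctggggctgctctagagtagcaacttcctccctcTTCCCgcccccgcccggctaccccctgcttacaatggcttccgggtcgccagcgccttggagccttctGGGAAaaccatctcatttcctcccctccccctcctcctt
GGGAA was found at base 212 of this window, counted from its 5′ end, and TTCCC at base 144. Of 32817 RefSeq promoter windows cut to the same 250 bases, 56.2% held GGGAA on either strand, so its presence here is common. TGGGAA, which contains that core, was present too and is found in 21.6% of windows. GGAAGT, an ETS core, was present (19.7% of windows), while TGACTCA of AP-1 (4.46%) and TGTGGT of RUNX (14.0%) were not in these letters. A match is not evidence of a bound site.

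The further Kpna1 region was found in all lists, at chr16:35981574-35981922 in replicate 1, with edges within a few bases in the others. The authors' column gives it to both Kpna1 and Gm15564, a noncoding gene, and it lay 1.37 kb outside the RefSeq span of Kpna1 in replicate 1. Its 3 peaks were 349, 327 and 340 bp wide. The fold enrichments were 4.21, 3.04 and 3.63, against 18.8, 37.0 and 22.9 at the inner Kpna1 site. Here the 2 measures of the authors parted. By fold enrichment the peaks were at percentiles of 16.1, 1.10 and 3.204, and by −log10 q at 87.9, 74.6 and 78.2. Gaps of this size or larger in the same direction were seen in 1.02%, 1.06% and 0.820% of peaks of the 3 lists. The RefSeq promoter windows of Gm15564 overlapping these peaks held none of the 5 motifs in the bases before the start. The replicate 1 peak covered only 73 and 75 of the 250 bases of these windows. Most of the peak was not searched, so whether it holds a motif is unknown.

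Relatives and binding partners of the 9 gene products were looked up to see whether peaks gathered on the same families. Of 86 such genes, 7 lay at distance 0 from a region shared by 2 or more lists, or 8.14%, against 3.75% of 21900 RefSeq protein-coding genes. With a region in any list the number was 16 (18.6%), against 7.84% of coding genes. With the RefSeq gene span it was 5 (5.81% against 2.92%), and without replicate 1 it was 7 (8.14% against 3.35%). The count of 7 rested on both replicate 2 and replicate 3. Without replicate 2 it was 2 of 86 (2.33%) against 1.88% of coding genes, and without replicate 3 it was 2 against 1.95%, both near the background. Gene length was not matched, so these shares are a description. The 7 were Dock2, Cdk5rap2, Eps15, Kpna3, Dpp9, Zyx and Lpp.

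The choice of the 9 genes by their rank leaves no relative that could match them, so the percentiles of the 7 are given as values only. Dock2, a Rac exchange factor of leukocytes, had 2 regions, each found in every list. Their percentiles were 3.07, 38.0 and 14.7 for one and 1.90, 12.3 and 1.19 for the other. The first of them lay 240 kb from the nearer end of Dock2, and the second 101 kb, both far inside the gene. Cdk5rap2, a centrosome gene like Cep192, had a region in all lists 32.2 kb inside, at percentiles of 57.7, 6.91 and 59.8. Eps15, which works with Fcho2 in coated pits, had one within 0.005 kb of an end of the gene in replicates 2 and 3, at 61.1 and 77.2. Kpna3, another importin alpha, had a region at percentiles of 15.6 and 25.2 in the same lists. Zyx and Lpp, LIM domain relatives of Limd1, were at 41.4 and 35.6, and at 42.9 and 15.8. Dpp9, a peptidase relative of Dpp6, was at 54.6 and 46.3. None of the 11 relatives chosen for Mbd5 had a peak in any list.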

How the data were processed

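MACS2, Subread, SAMtools, Picard, edgeR 3.20.0 and the build mm10 are named in the submitters' processing notes, with no roles; control, threshold and gene annotation are not given in the sources used here. Per the file headers, the authors deposited for each peak a fold enrichment (a linear ratio), −log10 values of its p-value and q-value, a score and the distance to a gene. Lists were called per library, per the peak names, and hold no counts, so depth is unknown. The list numbered 4 belongs to WT replicate 3, per the labels.

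Rows were reduced to 1 per peak, peaks sharing 1 base were merged, and ranks were taken within each list. Gene spans and promoter sequences came from RefSeq GRCm38.p6; all 9 genes matched by symbol, and 5 had promoter windows. No test was run. Members and lists were chosen with earlier results of these data known. Named genes were the 9 members, the 5 coding genes next in order (1 of them is not reported here), the gene most like each member, and relatives whose region was shared by 2 or more lists. The files hold no summits, so midpoints replaced the planned summits, and with no genome sequence the planned motif search was limited to promoter windows. Alternatives were another rank measure, merging rule, q threshold, gene span, equal list lengths and leaving out each list. Merging and ranking were checked on simulated data. Python 3.11.15, NumPy 2.4.6, pandas 2.3.3, SciPy 1.17.1 and matplotlib 3.10.9 were used.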

Additional observations from a re-analysis of the deposited data

How the results depend on the processing

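No paired analysis was possible because only WT lists were used, so nothing was compared between groups. Settings that need summits were not run; midpoints were chosen after seeing the data. Depth is unknown. The cause of each change was not tested. Of the 9 strongest regions, 7 to 9 were among the 15 strongest under every alternative run, and their median percentile, 99.3, ranged from 98.9 to 99.6. Of 54 values for single genes, 44 moved by less than the spread between lists, and all stayed between 98.0 and 99.98. The number of further regions, 2, was 0 when midpoints had to lie in the RefSeq span and 1 to 2 without 1 replicate. It fell to 1 without replicate 2, the list that names Mbd5, and those in 2 or more lists were then also 1. With midpoints within 100 bp the number was 4 (3 of them in 2 or more lists). That rule split the strongest Limd1 site, whose midpoints differed by up to 134 bp, and its pieces were counted as further regions. Limd1 then had no region in all lists.

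The median midpoint offset was 23.5 bp with the largest pairwise value for the 9 genes and 49.0 bp for all regions, and 20.7 bp for all regions once peaks under a −log10 q of 5 were left out. Without 1 replicate it was 13.5 to 23.5 bp for the 9 genes and 29.0 to 31.0 bp for all regions. Merged widths were 765 and 447 bp. The median distance to a gene end over all regions was 0.864 kb with regions in 2 or more lists, and 0.867 to 1.00 kb without 1 replicate. Relatives with a region were 16 with any list (18.6%, against 7.84% of coding genes) and 5 with the RefSeq gene span (5.81% against 2.92%). They were 2 with all lists (2.33% against 1.74%), and 2 (2.33% against 1.57%) once peaks under a −log10 q of 5 were left out. Without 1 replicate they were 2 to 7, and without replicate 2 or replicate 3 the number was 2.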
